A study of Mus musculus with 6 samples.

Results

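MC38 cells that received 10 µg/mL of S100A8/A9 during 6 h after 16 h in reduced serum (stimulated) were compared with MC38 cells kept in normal growth medium (control). The difference is the net change of both steps. The samples were chosen by their titles, 2 stimulated and 2 control arrays, which are 4 of the 6 samples in the series. The other 2 arrays, from cells in reduced serum with no S100A8/A9 (unstimulated), entered the model fit. Their values, or the step from them, are given beside the net change for some of the genes named. Where they are not given, the net change does not say in which step it arose. All cells were 1 mouse colon carcinoma line of C57Bl/6 background, and total RNA was read on Illumina bead arrays. Nothing in the labels says that the replicates were grown apart, and the p-values therefore cover the spread of these samples alone, which may be technical. Whether unstimulated cells had the further 6 h in culture is not stated. Each group occupied adjacent places on 1 chip, and place and group cannot be told apart.

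S100A8/A9, or calprotectin, is a protein pair released by neutrophils and monocytes. It binds calcium and chelates zinc, and outside the cell it binds TLR4 and RAGE, the products of Tlr4 and Ager, which signal to NF-kB. Serum supplies growth factors, lipids and metals, and its withdrawal takes dividing cells toward arrest and raises sterol synthesis genes. Interferon-stimulated genes encode antiviral effectors and antigen presentation factors, and in tumor cells they can be on without infection.

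Between 14877 and 15685 of 45281 probes were detected on the 4 arrays compared, at a detection p below 0.01. Replicates of a group correlated at r = 0.991 to 0.992 over tested genes, and stimulated with control arrays at 0.961 to 0.962. Values below are neqc log2 intensities, a background-corrected and quantile-normalized level of 1 probe, and a log2 change is stimulated minus control with its standard error (SE). Levels of different genes cannot be compared, since each rests on its own probe. By the chosen markers, the cells carried mesenchymal transcripts and few epithelial ones. On both arrays of each group, 8 of 11 mesenchymal markers were detected and 0 of 11 epithelial and colon markers, 9 of those 11 being detected on no array. Of a wider list of epithelial and colon genes, 30 on the array, 2 were detected on at least 2 arrays: Tjp1 in every group and Muc1 in unstimulated cells alone. The summed linear intensity of the mesenchymal markers was 16414 and 22802 in control and 32700 and 28621 in stimulated samples, and that of the epithelial markers was 281 to 299.8 in the 4 samples. Of the leukocyte markers, 5 of 6 on the array were detected on no array, and all 4 endothelial markers were detected on none. In bulk RNA, fewer cells that express a gene and less of its RNA per cell cannot be told apart.

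The net change was broad. Of 8909 genes tested, 1417 were higher and 1176 lower in stimulated cells (limma, Benjamini-Hochberg adjusted p below 0.05), which is 29.1% of the genes, 15.9% higher and 13.2% lower. In all 2593 of them both arrays of one group lay above both of the other, as they did for 65.8% of the genes tested. Large changes were mostly rises: 472 genes rose and 169 fell by 2-fold or more, the counts at 4-fold were 67 and 9, and at 8-fold 20 and 1. The median log2 change over all tested genes was -0.0089 and the median absolute change 0.320, with a median SE of 0.163. The count of falls depended on single arrays: it was 719 without stimulated replicate 1, 610 without control replicate 1 and 612 without control replicate 2. Median scaling, which put the median of all genes at -0.1061, gave 960 rises and 1292 falls. Some genes crossed the detection limit. By their tested probe, 150 genes were detected on both stimulated and neither control array, 132 of them called higher, and 66 showed the reverse, 52 of them called lower. Those of them also not detected in unstimulated cells entered the test only through the group where they are high, so they had to differ. The counts include such genes, whose number was not taken, and are descriptions only.

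**Figure D1:**
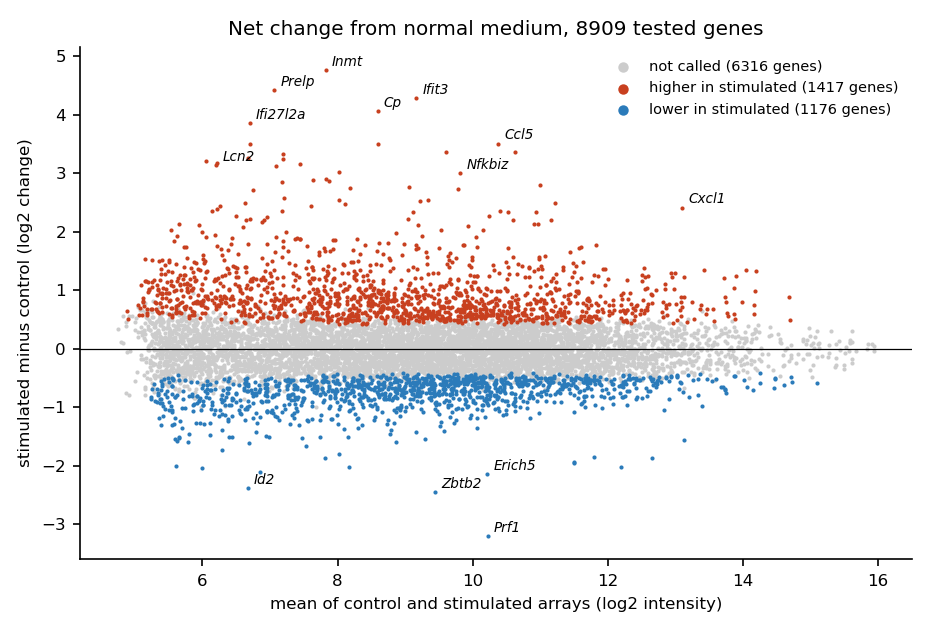
Each point is 1 of 8909 tested genes, with the mean log2 intensity of the 4 control and stimulated arrays on the horizontal axis and the log2 change, stimulated minus control, on the vertical axis. Among genes detected in both groups, the 1417 called higher reach 4.28 (Ifit3) and the 1176 called lower reach -3.20 (Prf1). Points of genes not detected in a group, such as Inmt, are fitted differences.

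The 15 largest rises included genes of the matrix and interferon-stimulated genes. Inmt, which encodes an indole N-methyltransferase, read 5.39 and 5.50 in control, 10.62 and 10.72 in unstimulated and 10.16 and 10.24 in stimulated samples. Inmt was not detected in control cells, so only a bound can be given for its tested probe: at least 23.6-fold higher in stimulated cells (limma adjusted p = 7.8e-07). Its other detected probe, also not detected in control cells, gave a smaller fitted log2 change of 3.07. Each such bound divides the bright group's mean by a ceiling for the dim group, which on every dim array is the lowest signal that counted as detected, or the probe's signal if larger. Prelp and Ogn, small leucine-rich proteoglycans of the matrix, and Mgp, the matrix Gla protein that inhibits calcification, followed. Prelp and Mgp were at least 12.5-fold and at least 6.99-fold higher from no detection in control cells. Ogn rose by 3.36 ± 0.17 on the log2 scale, and by 2.70 and 2.92 on its other detected probes. Cp encodes the copper-carrying ferroxidase ceruloplasmin and read 6.45 and 6.67 in control against 10.51 and 10.74 in stimulated samples, a log2 change of 4.06 ± 0.19 (adjusted p = 6.76e-06). Its other detected probe gave 3.39. Gsn, the actin-severing protein gelsolin, was at least 8.99-fold higher, Ecrg4, a secreted growth suppressor, at least 4.03-fold and Trp53inp1, a p53-induced regulator of autophagy, at least 4.47-fold. The other detected probe of Trp53inp1, also not detected in control cells, gave a smaller fitted log2 change of 1.89. Mxd4, a MAX-binding repressor that opposes MYC, rose by 3.37 ± 0.17, and by 2.55 and 2.88 on its other detected probes. None of these 9 genes (Inmt, Prelp, Ogn, Mgp, Cp, Gsn, Ecrg4, Trp53inp1 and Mxd4) differed between stimulated and unstimulated cells at the threshold (limma adjusted p from 0.155 for Cp to 0.946 for Prelp).

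The largest falls were smaller. Prf1, known as the gene of the pore-forming protein of cytotoxic lymphocytes, read 12.46 and 11.18 in control and 8.65 and 8.60 in stimulated samples, a log2 change of -3.20 ± 0.40 (adjusted p = 0.000763). The control arrays lay 1 log2 unit or more apart for Prf1 and for Zbtb2, a zinc finger transcription factor gene at 11.36 and 9.98 in control and 8.40 and 8.05 in stimulated samples (-2.45 ± 0.38). In neither gene did the groups overlap. Id2, Id1 and Id3 encode inhibitors of basic helix-loop-helix factors and are classic targets of BMP signalling. Id2 read 7.85 and 7.87 in control and 4.89 and 6.08 in stimulated samples, where 1 of 2 arrays detected it, and fell by 2.37 (adjusted p = 0.000999); its other probe gave -2.19. Id1 fell by 2.02 ± 0.24, and Id3, detected in control cells alone, was at least 1.93-fold lower and, tested only through that group, had to differ.

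The proliferins, placental prolactin-family hormones that serum induces in mouse fibroblasts, fell in all 3 tested genes of 4 listed. Prl2c2 read 13.18 and 13.25 in control, 10.55 and 10.47 in unstimulated and 11.25 and 11.13 in stimulated samples (log2 change -2.03 ± 0.14, adjusted p = 3.28e-05). Prl2c4 and Prl2c3 fell by 1.93 and 1.85. For each of these genes the stimulated arrays lay above the unstimulated and below the control arrays. The step from unstimulated to stimulated was 0.68, 0.68 and 0.98, none past the threshold (limma adjusted p = 0.158, 0.461 and 0.0974). The copies are near-identical, so their separate levels are uncertain. Slc11a1, a divalent metal transporter, fell by 1.95, Ramp3, a partner of the calcitonin-receptor-like receptor, by 1.87 and Selenoh, a nuclear selenoprotein, by 1.86. The other detected probes of Ramp3 gave -1.05 and -2.04. A small nucleolar RNA gene, Snora69, fell by 2.11 and Erich5, whose function is not well known, by 2.15. Trim43b and Prrg3, not detected in stimulated cells, were at least 2.70-fold and at least 2.05-fold lower (Prrg3 was detected in control cells alone and had to differ), and Prr7 fell by 1.81.

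**Figure D2:**
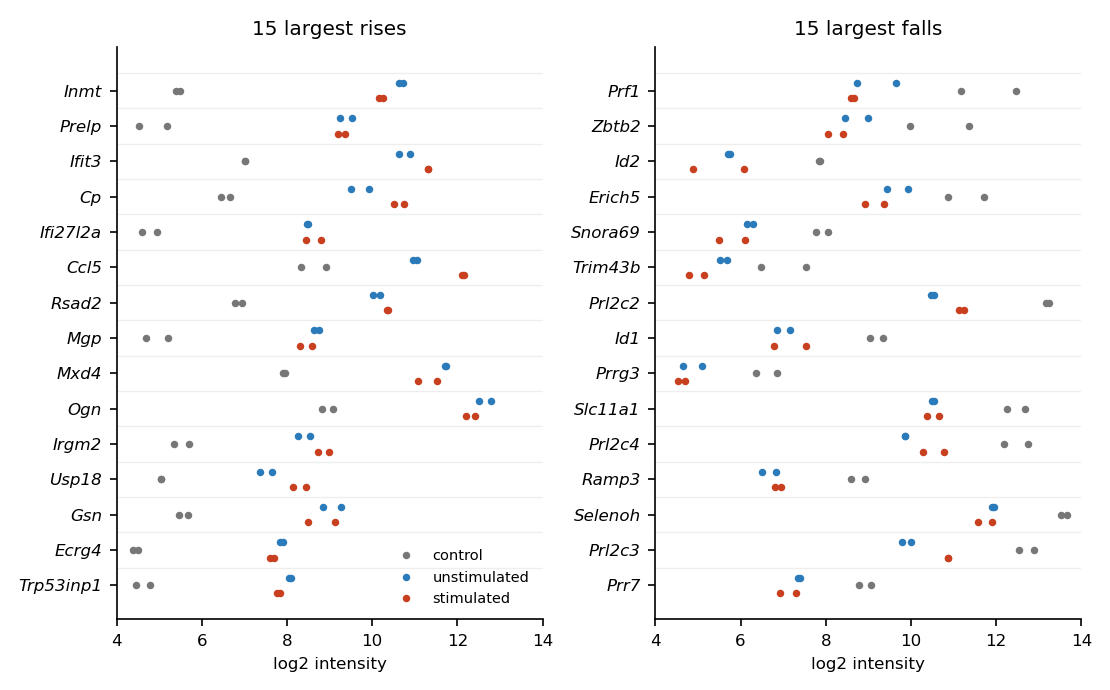
Log2 intensity (horizontal axis) on each of the 6 arrays for the 15 largest rises (left) and the 15 largest falls (right), with 1 point per array and colours for the groups. In each of the 30 genes the 2 stimulated arrays lie on one side of both control arrays, as in Inmt (10.16 and 10.24 against 5.39 and 5.50) and Prf1 (8.65 and 8.60 against 12.46 and 11.18).

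Interferon-stimulated genes moved together. Of 40 tested, 35 rose, and the list's median log2 change was 1.42 beside -0.0089 over all genes. Ifit3, which binds foreign RNA with its relatives, read 7.01 and 7.03 in control, 10.88 and 10.62 in unstimulated and 11.30 and 11.30 in stimulated samples. It rose by 4.28 ± 0.15 (adjusted p = 1.57e-06), and its other probe, not detected in control cells, gave a fitted log2 change of 3.16. Rsad2 encodes viperin, an enzyme that makes a chain-terminating nucleotide, and rose by 3.50 ± 0.15 from 6.77 and 6.94 to 10.36 and 10.35. Ifi27l2a and Irgm2, an immunity-related GTPase, were at least 7.93-fold and at least 9.28-fold higher from no detection. Usp18, which removes ISG15 from proteins and dampens interferon receptor signalling, was at least 6.32-fold higher, while its other detected probe gave 0.88 on the log2 scale. Of the effectors 25 of 27 rose, of the GTPases 6 of 7 and of the signalling genes 4 of 6. The GTPase Irgm1, singled out after its value was seen, fell by 0.62 ± 0.14 from 14.90 and 14.95 to 14.25 and 14.36. No member was called lower without stimulated replicate 1. Oas1g, a synthase of 2'-5'-linked oligoadenylates, had the largest step from unstimulated to stimulated cells in the list, 1.14 of a net 2.36, and did not pass there (limma adjusted p = 0.105).

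The motif of the interferon-stimulated response element (GAAA, any 2 bases, GAAA, on both strands) was in 15 of 35 promoter windows found for 29 of the 35 genes that rose, 42.9% beside 3.44% of all 32851 windows in the RefSeq table (GRCm38.p6, 250 bases before to 50 after each start). It was in 4 of 16 windows of the MHC class I genes that rose. A match is a description of the letters only. The windows of Ifit3 (chr19:34583279-34583578, plus strand) and Rsad2 (chr12:26456403-26456702, minus strand), the largest rises of the list among genes detected in control cells, are shown 5′ to 3′ with the motif on either strand in capitals.
Ifit3: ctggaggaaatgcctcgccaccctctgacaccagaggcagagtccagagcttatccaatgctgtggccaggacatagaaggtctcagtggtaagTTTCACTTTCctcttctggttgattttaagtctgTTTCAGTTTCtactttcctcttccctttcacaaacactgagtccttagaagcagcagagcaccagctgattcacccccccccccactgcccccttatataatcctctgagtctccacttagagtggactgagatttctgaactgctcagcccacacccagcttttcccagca
Rsad2: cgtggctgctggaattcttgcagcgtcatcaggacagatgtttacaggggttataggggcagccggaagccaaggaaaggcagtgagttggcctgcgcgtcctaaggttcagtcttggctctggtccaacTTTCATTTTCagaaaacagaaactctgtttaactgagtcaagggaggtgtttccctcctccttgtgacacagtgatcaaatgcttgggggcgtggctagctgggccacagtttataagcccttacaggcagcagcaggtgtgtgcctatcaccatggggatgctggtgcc

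Antigen presentation genes followed. Of 20 tested MHC class I genes, 17 rose and 0 fell (median 0.98). Tapbp, tapasin, which holds class I chains to the peptide transporter, read 7.94 and 7.98 in control and 10.42 and 10.55 in stimulated samples (2.53 ± 0.14, adjusted p = 1.07e-05), and 1.56 on its other probe. The transporter subunit Tap2 rose by 1.79 ± 0.21 and the immunoproteasome subunits Psmb9 and Psmb8 by 1.71 ± 0.20 and 1.57 ± 0.15. All 5 immunoproteasome genes rose, 5 of 7 peptide loading genes and 6 of 7 class I chains. For these 4 named genes, stimulated and unstimulated cells differed by -0.15 to 0.48, none past the threshold (limma adjusted p 0.404 to 0.941).

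Among chemokines, 9 of 11 tested genes rose (median 1.30, and 0.73 without background correction), with Ccl25, chosen after its value was seen, lower by 0.49 ± 0.16 (adjusted p = 0.0456). No chemokine was called lower without any 1 of the 4 arrays compared. Ccl5, which recruits T cells and monocytes, read 8.92 and 8.33 in control, 10.95 and 11.04 in unstimulated and 12.12 and 12.15 in stimulated samples, a net log2 change of 3.51 ± 0.20 (adjusted p = 1.07e-05). Each group of Ccl5 lay above the one before it, and the last step, 1.14, did not pass (limma adjusted p = 0.0978). The monocyte attractant Ccl9 rose by 2.04 ± 0.15 and Cx3cl1, fractalkine, by 1.47 ± 0.16. Cxcl9, also chosen after its value was seen, was detected on the stimulated arrays alone, which is how it came to be tested, and so had to differ; it is 1 of the 9.

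Cxcl1, an attractant of neutrophils, behaved otherwise. It read 12.03 and 11.76 in control, 11.77 and 11.96 in unstimulated and 14.36 and 14.25 in stimulated samples. The control and unstimulated arrays overlapped, and both stimulated arrays lay above all of them. Its net change was 2.41 ± 0.16 (adjusted p = 2.43e-05) and its step from unstimulated to stimulated was 2.44 (adjusted p = 0.00041). Only 7 genes, 0.0786% of those tested, passed in that step, against 30.8% between unstimulated and control cells. All 7 were higher in stimulated cells and also rose in the net comparison. For Lcn2 and Fndc7 among them, tested only through the stimulated arrays, the direction was fixed in both comparisons.

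Lcn2, the siderophore-binding lipocalin 2 that withholds iron from bacteria, read 4.49 and 4.79 in control, 4.62 and 4.67 in unstimulated and 7.51 and 8.04 in stimulated samples. It was detected on the 2 stimulated arrays only and was at least 4.39-fold higher than in control cells (adjusted p = 2.15e-05). Passing the detection filter only through the group where it is high, it had to differ. Zc3h12a, an RNase (regnase-1) that degrades inflammatory mRNAs, read 6.37 and 6.64 in control, 6.35 and 6.84 in unstimulated and 8.34 and 8.42 in stimulated samples (net 1.87 ± 0.19). Like Cxcl1, both had overlapping control and unstimulated arrays. Nfkbiz, a nuclear IkB protein that co-activates secondary NF-kB targets, read 8.39 and 8.25, then 9.49 and 9.42, then 11.40 and 11.25 in control, unstimulated and stimulated samples. Its net change of 3.01 ± 0.15 (adjusted p = 6.76e-06) held a step of 1.87 from unstimulated to stimulated cells (adjusted p = 0.000918). Fas, the death receptor CD95, read 7.92 and 7.82, then 8.37 and 8.44, then 9.80 and 9.89 (net 1.97 ± 0.14, step 1.44, adjusted p of the step 0.00531). Fndc7, whose function is not well known, was also detected in stimulated cells only, so had to differ, and was at least 1.80-fold higher than in control. In the step, Cxcl1, Nfkbiz and Slc39a10 passed without any 1 of the 6 arrays. Lcn2 and Fndc7 were tested only in the 4 fits that kept both stimulated arrays, so their dependence on either of those arrays was not tested. Zc3h12a passed in 3 of 6 (not without unstimulated replicate 1 or either stimulated replicate), Fas in 4 of 6 and Fndc7 in 2 of 4 (neither without an unstimulated replicate), with adjusted p up to 0.0824, 0.0881 and 0.206.

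Among acute phase, complement and antimicrobial genes 4 of 7 rose and 0 fell (median 1.09, and 0.48 without background correction). The 4 include Lcn2, which had to differ, and Cp. Slpi, a secreted protease inhibitor, read 10.14 and 9.89 in control, 10.17 and 10.23 in unstimulated and 11.08 and 11.50 in stimulated samples (1.27 ± 0.18), and its step of 1.09 did not pass (limma adjusted p = 0.0828). Lyz1, a lysozyme, was at least 1.17-fold higher from no detection in control cells.

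The wider NF-kB list had 14 of 36 tested genes higher and 0 lower (median 0.37), with 1 lower without stimulated replicate 2. None of the 4 tested NF-kB subunit genes was called, with log2 changes from -0.54 to 0.35, while 5 of 9 inhibitors, 6 of 10 targets and 3 of 13 kinases and adaptors rose. Over the list 38.9% were called, and of the kinases and adaptors 23.1%, beside 29.1% of all genes. Map3k8, the kinase TPL2 of inflammatory MAPK signalling, was at least 2.70-fold higher from no detection in control cells. The NF-kB consensus motif was in 3 of 6 promoter windows of chemokines that rose and in 5 of 13 of the NF-kB list, beside 8.46% of all windows, on either strand. Of the 7 genes that passed in the step, 5 had windows, and 1 of 6 windows held it, that of Cxcl1 (chr5:90890995-90891294, plus strand). The letters were not in the windows of Lcn2 and Zc3h12a. The Cxcl1 window is shown because this gene passed in the step without any 1 array, with the motif, matched at overlapping positions, in capitals.
Cxcl1: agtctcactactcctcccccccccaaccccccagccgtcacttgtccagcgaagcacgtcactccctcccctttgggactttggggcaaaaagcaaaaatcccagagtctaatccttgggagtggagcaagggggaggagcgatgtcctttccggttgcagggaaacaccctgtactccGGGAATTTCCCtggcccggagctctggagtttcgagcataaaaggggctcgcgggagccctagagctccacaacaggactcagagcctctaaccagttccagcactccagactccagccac

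**Figure D3:**
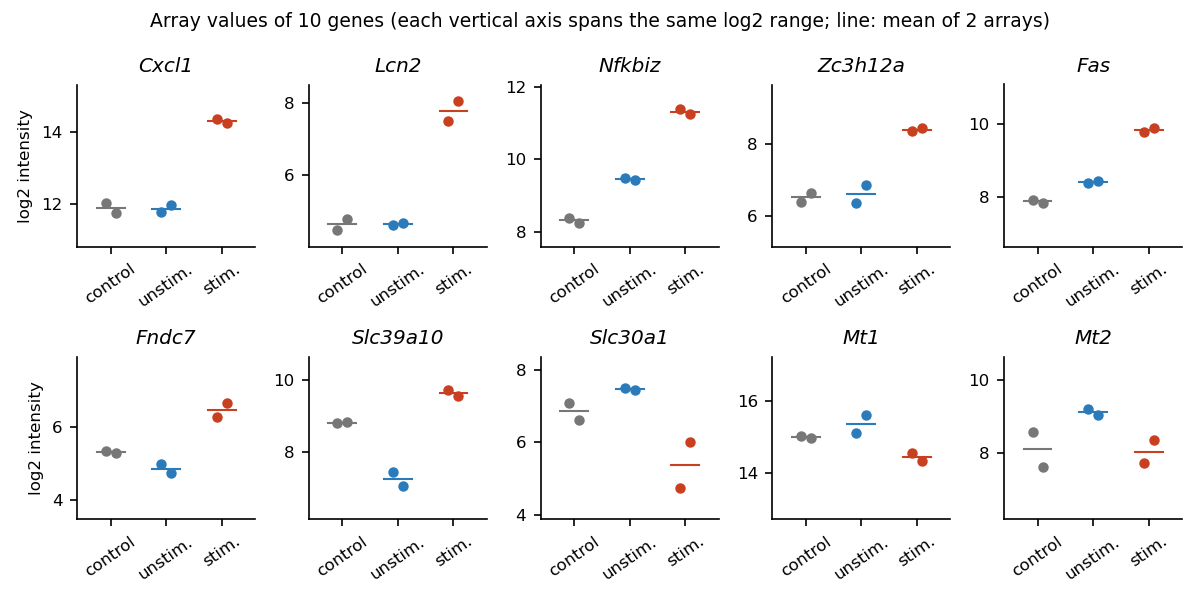
Log2 intensity (vertical axis) on the 2 arrays of each group for 10 genes, with a line at each group's mean. Cxcl1, Lcn2 and Zc3h12a have control and unstimulated arrays together and stimulated arrays above, Slc39a10 falls to 7.45 and 7.06 in unstimulated and lies at 9.70 and 9.56 in stimulated samples, and Mt2 has overlapping control and stimulated arrays.

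Of the zinc genes named, Slc39a10 passed in both steps, with opposite signs. Slc39a10, a plasma membrane zinc importer, read 8.79 and 8.83 in control, 7.45 and 7.06 in unstimulated and 9.70 and 9.56 in stimulated samples. Unstimulated minus control was -1.55 on the log2 scale and stimulated minus unstimulated 2.37 (adjusted p = 0.000526). The net change of Slc39a10 was therefore small, 0.82 ± 0.17 (adjusted p = 0.00722), with both stimulated arrays above both control arrays. Slc30a1, the zinc exporter of the plasma membrane, read 7.09 and 6.63 in control, 7.52 and 7.45 in unstimulated and 4.73 and 6.02 in stimulated samples, where 1 of 2 arrays detected it. It fell by 1.48 net (SE 0.35, adjusted p = 0.0138) and was not called without control replicate 1 (adjusted p = 0.0839). Neither step of Slc30a1 passed, 0.62 from control to unstimulated and -2.10 from unstimulated to stimulated (limma adjusted p = 0.209 and 0.0896).

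Metallothioneins bind zinc and copper and are induced by zinc. Mt1 read 15.04 and 14.97 in control, 15.13 and 15.61 in unstimulated and 14.55 and 14.34 in stimulated samples. Its net change of -0.56 ± 0.19 was at the threshold (adjusted p = 0.0496), and it was not called without either stimulated or either control replicate (adjusted p 0.0663 to 0.188). Mt2 read 8.57 and 7.60 in control and 7.72 and 8.34 in stimulated samples, which overlap (-0.06 ± 0.31, adjusted p = 0.908), against 9.21 and 9.05 in unstimulated samples. Across zinc and copper handling genes 2 of 21 were higher and 2 lower (median 0.08, and -0.03 under median scaling), 19% beside 29.1% of all genes. The other rise was that of Slc39a13, a zinc transporter of intracellular vesicles, at 1.19 ± 0.14. No member was called lower without control replicate 1, and 1 was without any other array of the 4. The core of the metal response element (TGCACNC or TGCGCNC, both strands), a motif chosen after the values were seen, was in 1 window each of Mt1, Mt2 and Slc30a1, 3 of 5 windows searched beside 25.7% of all. Those of Mt1 (chr8:94178839-94179138, plus strand) and Slc30a1 (chr1:191906531-191906830, plus strand) are shown with the core in capitals, since both genes lay lowest in stimulated cells.
Mt1: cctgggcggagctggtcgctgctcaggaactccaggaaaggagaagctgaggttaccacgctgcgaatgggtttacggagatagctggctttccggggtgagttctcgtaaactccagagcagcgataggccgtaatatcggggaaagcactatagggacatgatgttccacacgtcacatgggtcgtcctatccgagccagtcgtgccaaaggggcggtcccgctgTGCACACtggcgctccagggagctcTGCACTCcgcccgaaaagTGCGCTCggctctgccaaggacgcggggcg
Slc30a1: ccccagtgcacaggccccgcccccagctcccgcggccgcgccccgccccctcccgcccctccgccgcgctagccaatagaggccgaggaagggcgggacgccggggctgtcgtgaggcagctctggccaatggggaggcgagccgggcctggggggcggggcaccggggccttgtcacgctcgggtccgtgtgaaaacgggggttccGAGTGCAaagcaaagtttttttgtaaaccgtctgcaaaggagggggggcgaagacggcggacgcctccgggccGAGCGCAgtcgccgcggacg

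On the receptor side of S100A8/A9 signalling, Tlr4 read 7.78 and 7.93 in control and 8.78 and 8.87 in stimulated samples (0.97 ± 0.18, adjusted p = 0.0047), and 1.51 on its other detected probe. Its co-receptors Ly96 and Cd14 were at 0.69 ± 0.16 and 0.53 ± 0.15. Of 10 tested receptor and adaptor genes, 4 were called higher, 40% beside 29.1% of all genes called. Leaving out stimulated replicate 1 gave 2, and leaving out stimulated replicate 2 or control replicate 2 gave 1. Ager was detected on at most 1 array, and S100a8 and S100a9 on 0 arrays.

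Proliferation genes fell. Of 52 tested genes of DNA replication and G1/S, 40 fell and 0 rose (median -0.70), and 26 fell without control replicate 2. Gmnn, geminin, which blocks relicensing of origins, read 7.26 and 7.13 in control and 5.46 and 5.91 in stimulated samples, 1 of which detected it (-1.51 ± 0.18, adjusted p = 0.000597). The clamp loader subunit Rfc5 fell by 1.17, the origin recognition subunit Orc1 by 1.07 and Ccne1, cyclin E1, by 1.11. Of the licensing and helicase genes 16 of 18 fell, of the fork genes 15 of 20, of the nucleotide synthesis genes 4 of 4 and of the G1/S regulators 5 of 10. Mitosis and spindle genes fell in 16 of 28 cases and rose in 0 (median -0.52), led by Ube2c, the mitotic ubiquitin-conjugating enzyme (-1.08 ± 0.20), the kinetochore protein Cenpf (at least 1.54-fold lower, detected in control cells alone, so that it had to differ) and the transcription factor Mybl2 (-0.94 ± 0.20). The mitosis count depended on single arrays: leaving out stimulated replicate 1 gave 10, stimulated replicate 2 or control replicate 1 gave 7, and control replicate 2 gave 6. An E2F element (TTTCCCGC or TTTGGCGC, both strands) was in 11 of 44 windows of the replication genes that fell and in 0 of 13 of the mitosis genes, beside 1.56% of all windows. Mcm3, a subunit of the replicative helicase chosen after its values were seen because its window (chr1:20820263-20820562, minus strand) holds 2 matches, fell by 1.07 from 10.89 and 10.95 to 9.77 and 9.93.
Mcm3: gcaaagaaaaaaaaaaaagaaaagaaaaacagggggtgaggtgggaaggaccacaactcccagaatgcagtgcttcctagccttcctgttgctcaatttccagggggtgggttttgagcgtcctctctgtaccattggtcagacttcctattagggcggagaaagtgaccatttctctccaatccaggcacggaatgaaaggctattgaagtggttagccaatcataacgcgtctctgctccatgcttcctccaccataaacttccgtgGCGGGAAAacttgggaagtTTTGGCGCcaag

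Of 7 tested MYC network genes, 3 rose, the repressor Mxd4 among them, 1 fell and 3 were not called (median 0.48). Ribosome biogenesis genes fell. Of 30 tested genes of RNA polymerase I and ribosome processing, 21 fell and 0 rose (median -0.59), among them Bop1 (-1.05 ± 0.17) and Nop14 (a 2.01-fold fall), which process pre-ribosomal RNA. Tsr1, a ribosome maturation factor, fell by 0.96 on the tested probe, while its other probe gave 0.72, and it was not called by the mean of its probes (adjusted p = 0.512). Over the whole list of 37, the 22 falls became 13 without stimulated replicate 1, 11 without control replicate 1 and 13 without control replicate 2, and the 3 rises became 1 without control replicate 1.

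Lipid synthesis genes rose. For unstimulated minus control, the median log2 change was 0.87 in the cholesterol list and 0.81 in the fatty acid list. For stimulated minus unstimulated, the medians were -0.02 and 0.02. Of 22 cholesterol genes, 16 rose and 0 fell (median 0.75), 13 of them among 15 synthesis enzymes. Nsdhl, a sterol dehydrogenase, read 9.08 and 8.87 in control and 10.73 and 10.76 in stimulated samples (1.77 ± 0.15, adjusted p = 8.93e-05), and its 3 other probes gave 1.34 to 2.08. Mvd, which makes isopentenyl diphosphate, rose by 1.54, the cyclase Lss by 1.37 and the reductase Dhcr7 by 1.36. The sterol element (ATCAC, any base, CCAC, on both strands) was in 0 of 17 windows of the genes that rose and in 0.23% of all. Of 14 fatty acid genes, 10 rose and 0 fell (median 0.86). Acss2, which makes acetyl-CoA from acetate, read 10.00 and 9.95 in control and 12.44 and 12.50 in stimulated samples (2.49 ± 0.14, adjusted p = 1.07e-05), and Acly, which makes it from citrate, rose by 0.99, with the desaturases Scd2 and Scd1 at 0.92 and 0.91.

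Genes of starvation and stress responses were called higher or not called. Of 28 FOXO target and quiescence genes, 16 rose and 0 fell (median 0.70, and 0.42 without background correction), 1 of them, Rbl2, tested only through the stimulated arrays and so bound to differ. Pik3ip1, an inhibitor of PI3 kinase, was at least 3.58-fold higher from no detection, the ubiquitin ligase Fbxo32 rose by 2.20 ± 0.17 (1.15 on its other probe) and Ypel3, a growth suppressor, by 2.13 ± 0.16. Fbxo32 read 6.02 and 5.61 in control, 7.02 and 7.04 in unstimulated and 8.08 and 7.96 in stimulated samples, the last step not passing (limma adjusted p = 0.0978). Of 34 ATF4 and ER stress genes, 15 rose and 0 fell (median 0.41), 44.1% beside 29.1% of all genes. The stress regulator Nupr1 was at 2.34 ± 0.19, the mitochondrial folate enzyme Aldh1l2 at 1.78 ± 0.18 and the factor Atf5 at 1.46 ± 0.15. Of 39 lysosome and autophagy genes, 15 rose and 0 fell (median 0.36), 38.5% beside 29.1% of all genes. The rises included Map1lc3a and Map1lc3b, LC3 proteins of the autophagosome (1.58 ± 0.29 and 1.20 ± 0.17), Wipi1 (1.56) and the lysosomal peptidase Tpp1 (1.26). In the list of glycolysis and HIF targets 17 of 33 rose and 0 fell (median 0.57, and 11 rises without control replicate 2). The rises included 5 of 17 glycolysis genes (29.4% beside 29.1% of all genes) and 10 of 11 other HIF targets, a difference that was not tested. Egln3, an oxygen-sensing prolyl hydroxylase, rose by 1.43, the mitophagy receptor Bnip3l by 1.37 and P4ha2, a collagen prolyl hydroxylase, by 1.36, and Car9, a carbonic anhydrase, was at least 1.35-fold higher from no detection. The other probes of Egln3 and Car9, detected on neither control nor stimulated arrays, gave fitted log2 changes of 0.62 and 0.20.

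**Figure D4:**
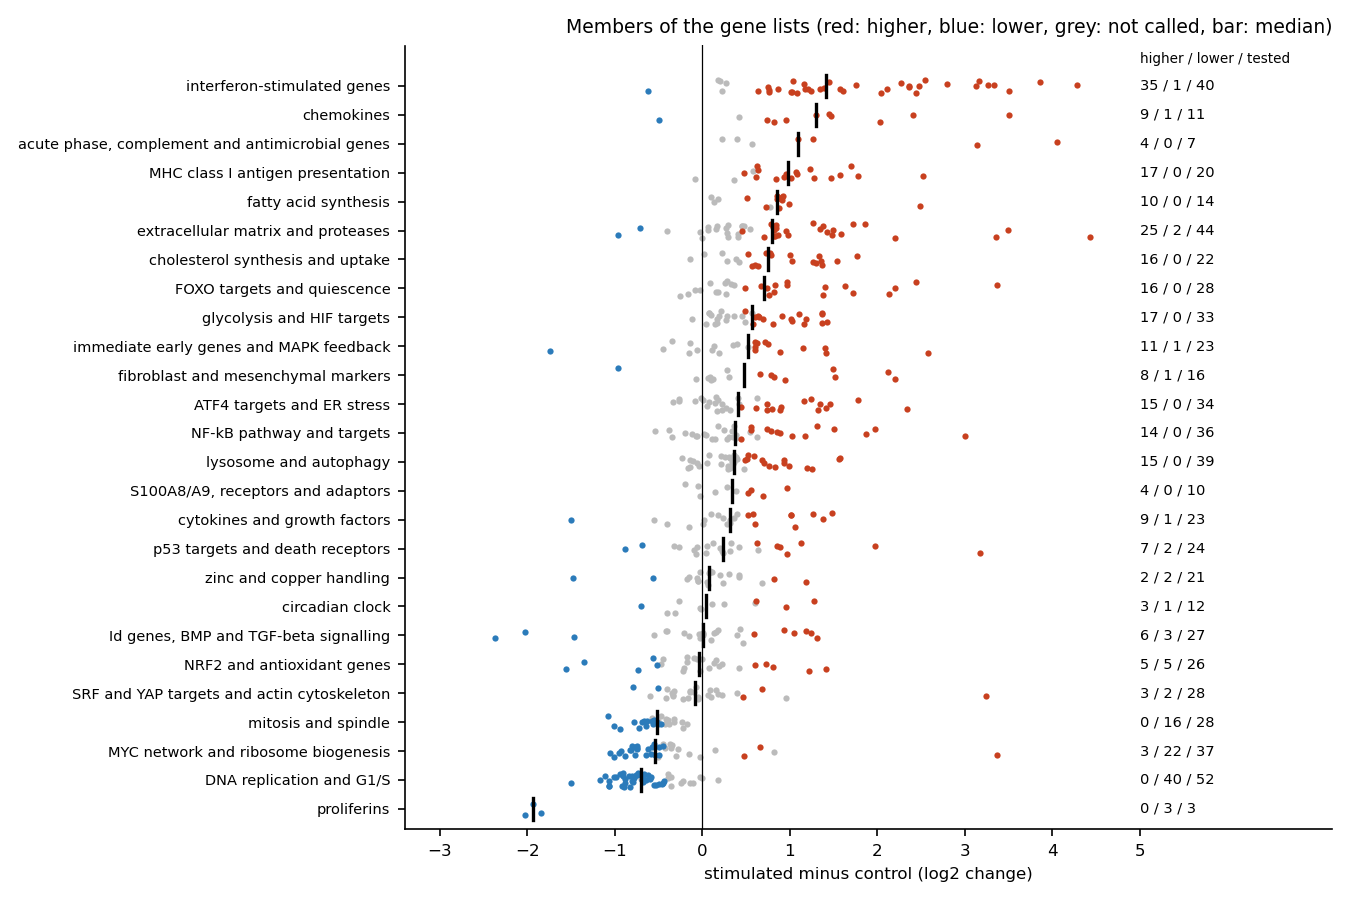
Log2 change, stimulated minus control (horizontal axis), of every tested member of 26 gene lists, ordered by the list median (black bar), with the counts called higher, called lower and tested at the right. Interferon-stimulated genes (median 1.42) stand at the top and the proliferins (-1.93), replication (-0.70), MYC and ribosome (-0.54) and mitosis (-0.52) lists at the bottom.

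Antioxidant genes went both ways, and most called matrix genes rose. Of 26 NRF2 and antioxidant genes 5 rose and 5 fell (median -0.04, and -0.21 under median scaling), 38.5% beside 29.1% of all genes. The selenoproteins Gpx1, glutathione peroxidase 1, and Txnrd1, thioredoxin reductase 1, fell by 1.56 ± 0.16 and 1.35 ± 0.21, while Gstm1, a glutathione transferase, rose by 1.22 ± 0.18 and the cystine transporter Slc7a11 by 1.42 ± 0.17 (0.52 and 0.53 on its other probes). Rises numbered 2 without stimulated replicate 1 or control replicate 2 and 3 without control replicate 1, and falls 3 without any 1 array other than control replicate 1 and 2 without that one. Among 44 genes of the matrix and its proteases, 25 were called higher and 2 lower (median 0.79), with 10 of 14 collagen and crosslinking genes and 7 of 11 proteases higher. Dcn, decorin, which binds collagen and growth factors, read 9.41 and 9.57 in control and 11.74 and 11.66 in stimulated samples (2.20 ± 0.14). Among fibroblast markers 8 of 16 rose and 1 fell (median 0.48), with the growth factor receptors Pdgfra and Pdgfrb at 2.13 ± 0.14 and 1.51 ± 0.15 and the collagen gene Col3a1 at 1.49 ± 0.15. These genes and Dcn are also in the summed mesenchymal marker level given above. Of its other members, Vim, the intermediate filament vimentin, read 13.32 and 13.97 in control and 14.15 and 13.76 in stimulated samples, which overlap, as do the arrays of the transcription factor genes Zeb1 and Zeb2. Those of Snai2, also detected in both groups, did not overlap, at 10.43 and 10.48 in control and 10.67 and 10.80 in stimulated samples.

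Growth signalling genes were mixed. Of 23 immediate early and MAPK feedback genes, 11 rose and 1 fell (median 0.53), with 7 rises under median scaling and 7 without control replicate 2, and 2 falls without the latter. Egr2, a zinc finger factor, read 6.05 and 5.78 in control and 8.46 and 8.54 in stimulated samples (2.58 ± 0.16), the phosphatase Dusp1 rose by 1.42 and Klf4 by 1.40, and the phosphatase Dusp2 fell by 1.74 ± 0.25. Of 23 cytokines and growth factors, 9 rose and 1 fell (median 0.32), 43.5% beside 29.1% of all genes. Il15, which sustains T and NK cells, rose by 1.48 ± 0.16, Igf2 by 1.38 ± 0.15 and Fgf7, a keratinocyte growth factor, by 1.26 ± 0.19, while Hbegf, an EGF receptor ligand, fell 2.84-fold. Without stimulated replicate 2, 2 cytokine genes were called lower. Of 28 SRF, YAP and actin genes 3 were higher and 2 lower (median -0.09, and -0.21 under median scaling), 17.9% beside 29.1% of all genes. The YAP targets Ccn1 and Ankrd1 were at -0.79 ± 0.16 and -0.51 ± 0.14 and the receptor kinase Axl at 0.69 ± 0.14. Without stimulated replicate 2 or control replicate 1, 1 was lower. BMP and TGF-beta genes had 6 rises and 3 falls of 27 (median 0.01, and -0.04 under median scaling), 33.3% beside 29.1% of all genes. The 3 falls were the Id genes, Id3 by construction, and Tgfbi, a TGF-beta-induced matrix protein, was at least 1.83-fold higher. Of 24 p53 target and death receptor genes 7 rose and 2 fell (median 0.23), 37.5% beside 29.1% of all genes. The count of falls in this list depended on single arrays. The stress protein Sesn1 was at 0.97 ± 0.14. Circadian genes were near the background, with 3 rises and 1 fall of 12, 33.3% beside 29.1% of all genes (median 0.05, and 0.020 under median scaling): Bhlhe40 at 1.28, Arntl, the partner of CLOCK, at 0.96 and the repressor Per1 at -0.70.

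Genes named here for the lowest step from unstimulated to stimulated cells included both net rises and net falls, and none passed in that step. Fam180a read 5.74 and 5.77 in control (detected on 1 of 2), 9.63 and 9.57 in unstimulated and 8.50 and 8.73 in stimulated samples, so a net rise of 2.86 ± 0.15 stood beside a last step of -0.99 (limma adjusted p = 0.0524). Tns1, tensin 1 of focal adhesions, was at least 1.17-fold higher net, with a step of -0.94 (limma adjusted p = 0.134). Others lay at or near the control level in unstimulated and below it in stimulated cells: Pogz, a chromatin-bound zinc finger protein, at -0.95 ± 0.24 net, the sialyltransferase St3gal4 at -0.88 ± 0.19 and the ephrin Efna1 at -0.87 ± 0.19, with steps of -1.23, -1.06 and -0.80 (limma adjusted p = 0.134, 0.106 and 0.262). Pogz was not called net without stimulated replicate 2 or control replicate 2, St3gal4 without control replicate 1 and Efna1 without stimulated replicate 1 (adjusted p 0.0519 to 0.0956). The histone gene H2bc18 fell by 1.42 ± 0.20, with a step of -0.82 (limma adjusted p = 0.262).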

How the data were processed

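RNA of 6 samples was amplified to biotin-labelled cRNA and hybridised to single-colour Illumina mouse bead arrays, per the labels' protocols. The deposited probe signals are intensities without normalization, with medians of 90.2 to 97.4. Each probe and array also has a detection p-value, per the file headers. The authors' deposited log2 values equalled quantile-normalized log2 signals to within 0.00203. For the bead summary software, the sources used here give no name. The number of arrays limits the precision, and 88 to 134 signals were equal between any pair of arrays, so none was counted as a copy.

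Signals were corrected in R 4.3.3 with limma 3.58.1 (neqc, offset 16, negative controls inferred from detection p-values) and quantile-normalized. Of 45281 probes, 34885 had 1 gene symbol, 18 several and 10378 none. Probes with 1 symbol and a detection p below 0.01 on at least 2 of 6 arrays were kept, the brightest per gene, giving 8909 genes, 3572 of them with other detected probes. Group means over all 6 arrays were estimated in 1 linear model with empirical Bayes (3 residual and 6.02 prior degrees of freedom), and p-values were Benjamini-Hochberg adjusted over all 8909 genes.

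Groups came from sample titles. The members and gene lists were chosen with earlier results of these data known, so list counts are descriptions. Named genes were the 15 largest rises and falls, up to 4 called members per list (2 if none), the 8 highest and 8 lowest called genes by stimulated minus unstimulated, every gene called in that step, and 8 zinc and S100A8/A9 genes. The 58 called genes with provisional symbols are counted, not named. For these 124 genes, 58 of 60 other detected probes had the same sign and 19 differed by over 1.5-fold. Alternatives were other background, scaling, filter, probe and model choices and leaving out each array. The fit was tested on simulated data for this comparison (8909 genes, 200 of them changed). It recovered 49.3% of changes of 1.5-fold, 97% of 2-fold and 100% of 4-fold and made 17 false calls. The simulated noise was independent between arrays, and far fewer genes were changed than were called in the data. The simulation therefore cannot give the share of false calls in these data.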

Additional observations from a re-analysis of the deposited data

How the results depend on the processing

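Of the 2593 calls, the same gene kept its call and its sign for 2470 without background correction, 2056 under median scaling, 1843 with no filter on dim probes (19057 genes tested) and 1457 to 2266 without any 1 array. Without any 1 array the counts were 946 to 1279 higher and 610 to 1044 lower, with 465 to 500 rises and 169 to 229 falls of 2-fold or more. Fold changes depended on the background: without its correction, and in the deposited log2 values, 253 rose and 52 fell by 2-fold or more, and 82 fell that far with an offset of 50. Fitting all 16355 detected probes one by one, chosen after seeing the data, gave 1978 lower, with 753 rises and 376 falls of 2-fold or more. The labels give groups the same replicate numbers. Deviations from the group mean correlated at -0.040 between stimulated replicate 1 and control replicate 1. With 2 arrays per group, this cannot decide whether same-numbered samples were grown or handled together. With the replicate number as a block, 1341 were higher and 1126 lower. Over the 124 named genes, 2046 values kept direction and side of the threshold, 42 lost the call and 1 gained it (Coro1a, under the block). Only genes not called turned sign: Mt2 to 0.25 without stimulated replicate 1 and 0.43 without control replicate 1 (range without 1 array -0.54 to 0.43), Muc1 to 0.29 without stimulated replicate 1 and 0.19 without control replicate 2 (range -0.35 to 0.29), and Tjp1 to -0.033 under median scaling. The cause was not tested. Mt1 lost its call in 7 alternatives, Ticam1 in 12, Cd14 in 5, Ankrd1 in 5 and Ly96 in 2, and Axl under median scaling (adjusted p = 0.0996). Zinc and copper genes called higher numbered 4 without background correction, mitosis genes called lower 10 with no filter, and receptor genes called higher 2 under median scaling. Dim probes limit the folds of genes not detected in a group, and 2 arrays per group limit the precision of each value.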

Other observations

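Genes of selenoproteins, proteins that carry selenocysteine, were looked at after Selenoh, Gpx1 and Txnrd1 had been seen among the falls, so the list gets no test. Of 24 listed genes 17 were tested, and 5 were called lower and 2 higher in stimulated than in control cells (limma, adjusted over all genes). Selenoh read 13.66 and 13.51 in control, 11.94 and 11.90 in unstimulated and 11.89 and 11.57 in stimulated samples. Gpx1 read 13.81 and 13.99 in control, 12.32 and 12.47 in unstimulated and 12.24 and 12.45 in stimulated samples. In both genes the control arrays stood above the other 4. Selenow fell by 1.40 ± 0.24 on the log2 scale (adjusted p = 0.00355), Txnrd1 by 1.35 and Txnrd3, another thioredoxin reductase, by 0.58 ± 0.16. Gpx4, the peroxidase of membrane lipids, was at 0.15 ± 0.16. The rises were those of Selenos (1.21 ± 0.16) and Selenok (0.67 ± 0.14), selenoproteins of the endoplasmic reticulum, and the other 10 genes lay between -0.45 and 0.25. None of the 5 that fell differed between stimulated and unstimulated cells at the threshold (limma adjusted p 0.814 to 0.986).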
